A study of Mus musculus with 3 samples.

Results

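Of 5340 epidermal cells kept from 3 libraries of mouse ear epidermis, 873 were resting basal keratinocytes in which Thy1, Mmp3 and Igfbp2 together outweighed or equalled Cxcl14. Cells were kept with 500 or more detected genes and a mitochondrial share of 10% or less of their unique molecular identifiers (UMIs, tags that count each captured RNA molecule once). A member had Krt5 and Krt14 together at 0.5% or more of its UMIs, Krt1 and Krt10 together under 0.5%, fewer than 2 UMIs over Ube2c, Cdc20, Ccnb1, Cenpa and Cenpf, and fewer than 10 over the histone genes Hist1h1b, Hist1h2ap and Hist1h2ae. It also had 3 or more UMIs over Mmp3, Thy1 and Igfbp2, and at least as many of these as of Cxcl14. The members were thus chosen by the measured UMIs of these 16 genes, whose levels are given as descriptions and were not tested. The libraries form 1 group of 3 replicates from 9-week-old C57BL/6N mice, and the labels name no treatment and no altered gene. The epidermis was lifted from ear skin with dispase, dispersed with trypsin, frozen as cells and put through a 10x Genomics droplet kit. The labels do not say whether replicates came from separate animals, so p-values measure only the spread between these libraries, which may be technical.

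Basal keratinocytes are the innermost epidermal cells: they hold to the basement membrane through integrins and hemidesmosomes, express the keratins Krt5 and Krt14, and divide to supply the spinous cells above, which switch to Krt1 and Krt10. Thy1 is a lipid-anchored surface glycoprotein best known from T cells and fibroblasts, Mmp3 (stromelysin) is a secreted protease that digests matrix proteins, and Igfbp2 is a secreted protein that binds insulin-like growth factors. Cxcl14 is a chemokine made in resting epidermis, and Sparc is a secreted collagen-binding protein.

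Members made up 24.6% of the kept cells of replicate 1 (232 of 944; exact 95% interval 21.9 to 27.5%), 11.0% in replicate 2 (243 of 2212; 9.71 to 12.4%) and 18.2% in replicate 3 (398 of 2184; 16.6 to 19.9%), a mean of 17.9 ± 6.80% (SD, n = 3). Among resting basal cells, meaning all cells past the keratin, cycle and histone gates, the shares were 61.5%, 29.5% and 51.3%, a mean of 47.5 ± 16.3%. Replicate 2 was lowest and replicate 1 highest on both counts, and the intervals, which cover counting error only, did not overlap between libraries. Median depth moved with the share: members held 12680.5, 8602 and 9178 UMIs per cell in replicates 1, 2 and 3, from highest to lowest in the order 1, 3, 2. With each cell thinned to 5000 UMIs, the members' share was 18.8%, 8.00% and 14.1% of kept cells and 47.0%, 21.9% and 41.3% of resting basal cells, and among unthinned cells of 5000 to 20000 UMIs it was 39.1%, 14.3% and 23.9% of kept cells. The order of the libraries was the same at matched depth, while after thinning the intervals of replicates 1 and 3 overlapped among resting basal cells (41.6 to 52.5% and 37.5 to 45.2%).

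The rule drew a line through a continuous distribution. Just inside it, 151 members had exactly 3 UMIs of the 3 genes. Just outside it, 159 resting basal cells had 2 such UMIs and no more Cxcl14 UMIs than that, and 64 cells had 3 such UMIs but more of Cxcl14. At the upper end, 222 members (25.4%) had 10 or more, which was 41.4% of the members of replicate 1, 12.3% in replicate 2 and 24.1% in replicate 3. The 1103 resting basal cells outside comprised 479 Cxcl14-led cells, which had 3 or more Cxcl14 UMIs and more of Cxcl14 than of the 3 genes, and 624 remaining cells.

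**Figure D1:**
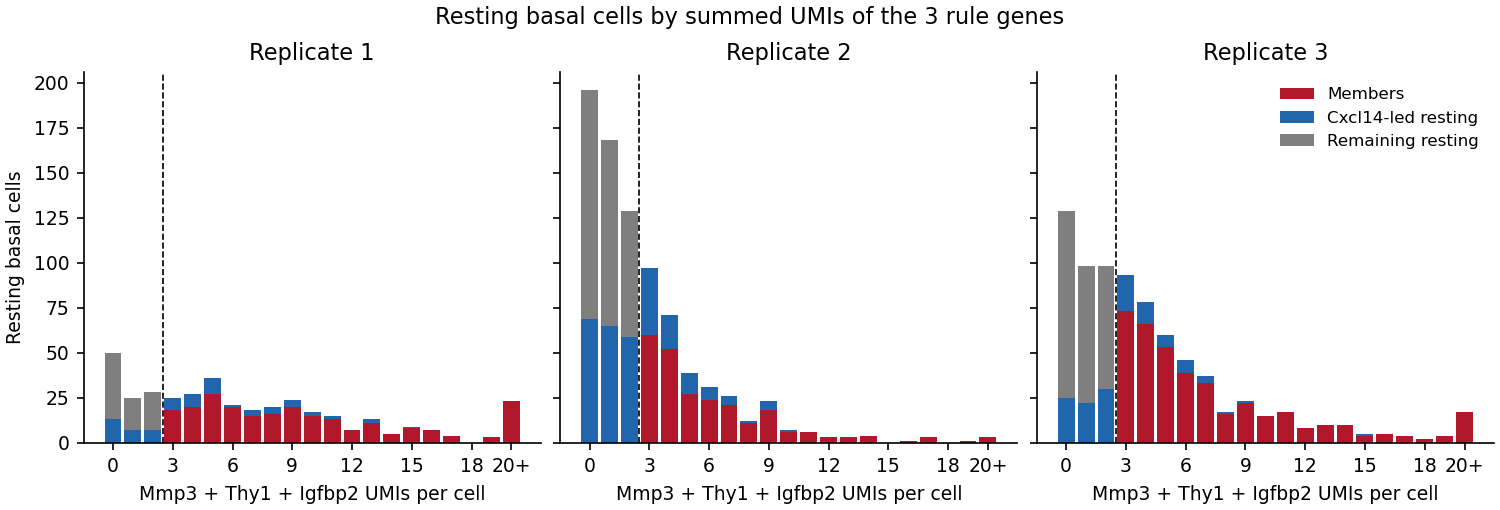
Number of resting basal cells (vertical axis) by their summed Mmp3, Thy1 and Igfbp2 UMIs (horizontal axis; the last bar holds 20 or more) in each library, stacked by class, with the threshold of 3 UMIs dashed. No gap stands at the threshold in any library: 159 cells at 2 UMIs lie just outside and 151 members at 3 UMIs just inside.

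A minority of members had all 3 genes detected: 37.5%, 21.4% and 29.9% in replicates 1, 2 and 3, without thinning. A Thy1 UMI was present in 813 members (93.1%), an Igfbp2 UMI in 719 (82.4%) and an Mmp3 UMI in 346 (39.6%). All 3 genes were detected together in 258 members (29.6%), exactly 2 in 489 (56.0%) and 1 in 126 (14.4%). Thy1 and Igfbp2 shared 665 members (76.2%). Cxcl14 was not excluded by the rule, and 556 members had a Cxcl14 UMI while 317 (36.3%) had none.

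Detection depends on depth, so each cell was also thinned to 3000 UMIs, which left 855 of the 873 members, 466 of 479 Cxcl14-led cells and 2359 of 2461 spinous cells. After thinning, Thy1 was detected in 60.7% of members, against 43.6% of Cxcl14-led cells and 2.20% of spinous cells (93.1%, 67.4% and 5.89% before thinning). Igfbp2 was detected in 51.3% of thinned members, against 19.7% of Cxcl14-led cells and 3.90% of spinous cells. Mmp3 was detected in 23.2% of thinned members, against 4.72% of Cxcl14-led cells and 3.01% of spinous cells (39.6%, 10.6% and 6.26% before thinning). Spinous cells, which largely lacked the 3 genes, had median depths of 21004.5, 13394 and 15193 UMIs, above those of members in every library, so the low spinous shares did not come with lower depth. Thinning does not remove free RNA, and the spinous shares are a comparison rather than a measured background for it. For Mmp3, kept cells in no basal or spinous class had thinned shares of 1.79%, 1.67% and 0% in replicates 1, 2 and 3. The spinous shares, given next, were above these in replicates 1 and 3 and below in replicate 2. How much of the spinous Mmp3 came from free RNA was not tested. The thinned Mmp3 share was 7.25%, 2.94% and 7.20% in Cxcl14-led cells of replicates 1, 2 and 3, against 5.03%, 1.51% and 3.71% in spinous cells, higher within each library but with overlapping ranges.

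Summed over the cells of a class and scaled by the UMI total of that class and library to CPM (the usual normalised count), Thy1 stood at 345, 398 and 337 CPM in members of replicates 1, 2 and 3, against 231, 196 and 218 CPM in Cxcl14-led cells and 4.72, 9.17 and 8.41 CPM in spinous cells. Mmp3 stood at 179, 129 and 129 CPM in members, against 43.6, 17.0 and 17.6 CPM in Cxcl14-led cells. Igfbp2 stood at 309, 205 and 323 CPM in members, against 112, 63.7 and 84.0 CPM in Cxcl14-led cells. For each of the 3 genes every member value was above every Cxcl14-led value, a direction the rule itself favours. Thy1 was also well above its spinous level in Cxcl14-led cells, whereas Mmp3, at 22.7, 6.00 and 10.5 CPM in spinous cells, was higher in Cxcl14-led cells within each library but with overlapping ranges.

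The cycling basal cells, which passed the keratin gate but failed a cycle or histone gate, carried the 3 genes as well. Thy1 averaged 359.6 ± 33.1 CPM in members (SD, n = 3) and 388 ± 19.0 CPM in cycling cells, and Igfbp2 averaged 279 ± 64.9 and 398 ± 111 CPM. Mmp3 averaged 146 ± 28.9 CPM in members and 90.6 ± 37.9 CPM in cycling cells. The ranges of members and cycling cells overlapped for Thy1 and Igfbp2 but not for Mmp3, whose lowest member value was 129 CPM and highest cycling value 115 CPM. Members had to hold 3 or more UMIs of the 3 genes and cycling cells did not, so the rule itself favours higher member values. Of the 419 cycling cells, 337 (80.4%) had 3 or more UMIs of the 3 genes, against 182 (38.0%) of Cxcl14-led and 164 (6.66%) of spinous cells. These counts were not thinned, and median depth was 13148, 7575 and 14988 UMIs in cycling, Cxcl14-led and spinous cells. The rule also limits the Cxcl14-led share, since resting cells with 3 or more such UMIs and no more of Cxcl14 became members. Cxcl14 stood at 213, 176 and 160.4 CPM in members, against 1049.9, 1098 and 1089.9 CPM in Cxcl14-led cells.

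**Figure D2:**
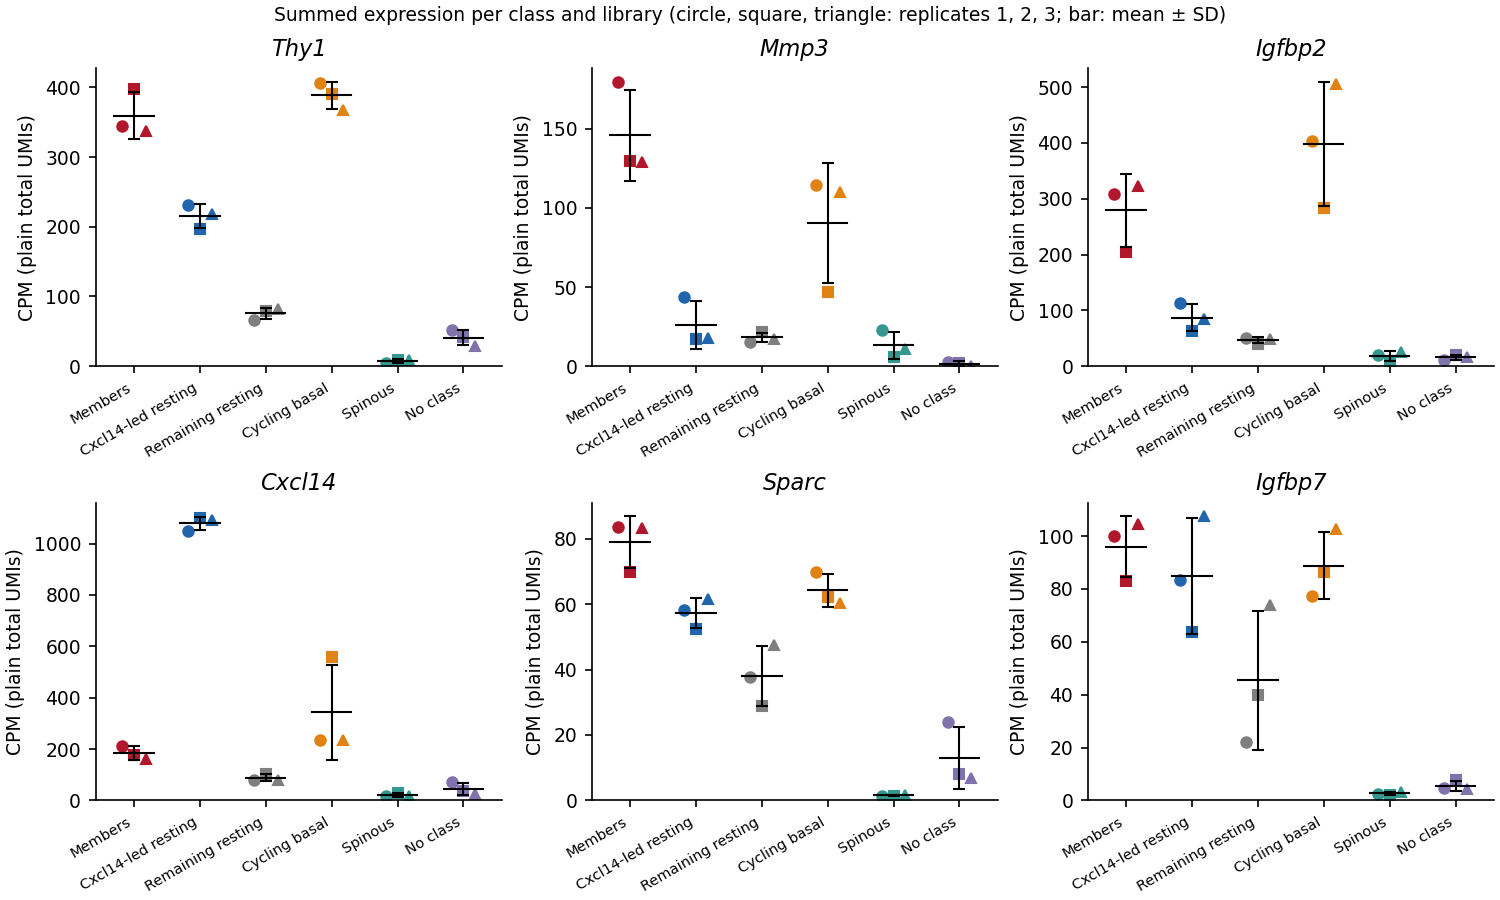
Summed expression in CPM (vertical axis, linear, from 0) of the 3 rule genes, Cxcl14, Sparc and Igfbp7 by cell class (horizontal axis), with 1 symbol for each library and the mean ± SD over 3 libraries. Thy1 and Igfbp2 are on average higher in cycling basal cells than in members, with overlapping ranges. Mmp3 is highest in members (129 to 179 CPM), a direction the rule favours, and Sparc and Igfbp7 are near 0 in spinous cells.

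In the mm10 genome, with gene bounds from GENCODE M21, Mmp3 lies on chromosome 9 at 7445822-7455975 (plus strand), Thy1 on chromosome 9 at 44043384-44048579 (plus strand) and Igfbp2 on chromosome 1 at 72824503-72852474 (plus strand). Cxcl14 lies on chromosome 13 at 56288643-56296551 (minus strand) and Sparc on chromosome 11 at 55394500-55423183 (minus strand). The start-site sequences of Mmp3 and Igfbp2, from RefSeq on GRCm38.p6, are shown because both rule genes encode secreted products. They run from 250 bases before an annotated start to 50 after it. Mmp3 has 1 such sequence at chr9:7445572-7445871, and Igfbp2 has a first at chr1:72824230-72824529 and a second at chr1:72825137-72825436, all on the plus strand. Capitals mark TGAGTCA in Mmp3 and in the second Igfbp2 sequence, TATAAA in Mmp3, and GGGCGG in the first Igfbp2 sequence.
Mmp3: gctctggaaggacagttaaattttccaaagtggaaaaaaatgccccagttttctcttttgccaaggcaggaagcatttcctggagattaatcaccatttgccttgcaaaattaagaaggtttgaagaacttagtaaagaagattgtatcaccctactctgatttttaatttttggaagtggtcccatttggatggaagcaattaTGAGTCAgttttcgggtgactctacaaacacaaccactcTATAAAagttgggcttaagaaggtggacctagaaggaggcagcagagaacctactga
Igfbp2, first start: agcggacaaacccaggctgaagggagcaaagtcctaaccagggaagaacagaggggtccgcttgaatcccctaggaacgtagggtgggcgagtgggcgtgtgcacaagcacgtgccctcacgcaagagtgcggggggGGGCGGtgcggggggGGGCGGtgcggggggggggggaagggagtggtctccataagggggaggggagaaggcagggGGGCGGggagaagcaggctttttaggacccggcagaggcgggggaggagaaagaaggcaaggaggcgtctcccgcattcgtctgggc
Igfbp2, second start: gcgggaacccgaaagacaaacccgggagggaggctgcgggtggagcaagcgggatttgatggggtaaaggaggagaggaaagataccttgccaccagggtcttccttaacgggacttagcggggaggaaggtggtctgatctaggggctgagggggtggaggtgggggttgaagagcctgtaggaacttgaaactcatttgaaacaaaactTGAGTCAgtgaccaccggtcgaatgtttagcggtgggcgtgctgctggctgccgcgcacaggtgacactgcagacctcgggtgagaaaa
The Mmp3 sequence held 40.0% G and C, with TGAGTCA, an AP-1 type word, beginning 46 bases before the start and TATAAA 7 bases before it. The first Igfbp2 sequence held 67.0% G and C, with GGGCGG, a word bound by Sp1-type factors, beginning 113, 98 and 37 bases before the start. The second held 57.3% G and C, with TGAGTCA beginning 39 bases before that start, so the word occurs in a start window of each gene. Which Igfbp2 start the members use was not analysed here. Among 32851 RefSeq promoters of the same length, searched on both strands, 7.81% held TGANTCA, 13.6% held TATAAA and 35.7% held GGGCGG. These matches describe letters in the window and are not evidence of binding.

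Checked against marker genes, members had a basal profile. Krt14 stood at 18069.6, 16108 and 17597 CPM in members, against 513, 501 and 785 CPM in spinous cells, and Krt10 at 546, 427 and 635 CPM in members, against 16152, 14139.9 and 17746 CPM in spinous cells, as the keratin gate set. Basal markers outside the rule were also higher than in spinous cells, with Col17a1, the transmembrane collagen of hemidesmosomes, at 1229, 1160.0 and 1213 CPM in members, against 176, 177 and 179 CPM in spinous cells. Mki67, a proliferation marker outside the rule, stood at 10.8, 9.10 and 19.3 CPM in members, against 511, 575 and 515 CPM in cycling cells. The cycle and histone gates favour this direction, so it was no independent check of the resting label. Sparc, listed as a marker of these cells but not used by the rule, did not pass the test between members and Cxcl14-led cells. It stood at 83.7, 69.9 and 83.3 CPM in members, against 58.2, 52.5 and 61.5 CPM in Cxcl14-led cells (log2 difference 0.41 ± 0.12, adjusted p = 0.173 by the test described next).

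Across the series, 6078 barcodes carried 68583868 UMIs over 31053 genes, and 738 barcodes were dropped. Of all barcodes, 16 occurred in more than 1 library, 3 of them in members, and Scrublet marked 30 kept cells as doublets, 1 of them a member. Markers of other cell types were nearly absent from members: 6 T cell markers summed together were at 0, 16.3 and 0 CPM in members (Cd2 at 0) and at 0, 1.46 and 0.977 CPM in Cxcl14-led cells, and the fibroblast markers at 32.3, 0.479 and 1.06 CPM in members (7 markers, with Col3a1, Pdgfra and Dpt at 0) and at 3.97, 0 and 0 CPM in Cxcl14-led cells. Only 8 of 873 members held a T cell or fibroblast marker UMI, against 813 with Thy1. The melanocyte, endothelial and Merkel cell lists each summed to at most 1.01 CPM in members of any library, with Tyrp1, Kit and Sox10, with Cdh5, Kdr, Tek and Emcn, and with Krt18, Krt20 and Sox2 at 0. The Langerhans cell list, which includes Epcam, summed to 94.5, 131 and 131 CPM in members and to 126, 123 and 104 CPM in Cxcl14-led cells.

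Members were set first against the Cxcl14-led resting cells, which passed the same keratin, cycle and histone gates. Few genes separated the classes. Members were higher in Pkm, Fam213a and Ces2g, genes of glycolysis, redox and ester metabolism, by 1.43- to 1.88-fold, and lower in the peptide gene Pyy, the chemokine gene Ccl27a, several MHC class I genes and the hair follicle markers Lgr5, Cd34, Sox9 and Lhx2. UMIs were summed per library and class and compared with edgeR's quasi-likelihood test with the library as a block and Benjamini-Hochberg adjustment over all genes tested. Every adjusted p here comes from that test at a threshold of 0.05. Of 10152 genes tested, 46 passed (0.453%), 9 higher (0.0887%) and 37 lower (0.364%) in members, and 988 had an unadjusted p under 0.05. Leaving out replicate 1, 2 or 3 gave 21, 17 and 39 genes, and leaving out the library block gave 12, so most of these calls rest on all 3 libraries and on the pairing by library.

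The clearest difference was Pyy, which encodes the secreted peptide YY, a hormone best known from the gut. Pyy stood at 10.1, 74.7 and 60.0 CPM in members, against 106, 626 and 755 CPM in Cxcl14-led cells. It fell in members within every library by a log2 difference of -3.41 ± 0.19 (a 10.6-fold difference, adjusted p = 1.19e-09), and the CPM ranges did not overlap, although replicate 1 was lowest in both classes. Pyy averaged 166 CPM in cycling, 120.4 CPM in remaining resting and 32.9 CPM in spinous cells.

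Ccl27a, which encodes an epidermal chemokine that attracts skin-homing T cells, stood at 110.3, 201 and 126 CPM in members, against 339, 733 and 796 CPM in Cxcl14-led cells. The ranges did not overlap, and Ccl27a fell by 2.17 ± 0.25 on the log2 scale (adjusted p = 1.92e-04). Its neighbour Il11ra1, the interleukin 11 receptor, stood at 54.5, 54.1 and 45.2 CPM in members, against 107, 107 and 98.6 CPM in Cxcl14-led cells (log2 difference -1.06 ± 0.15, adjusted p = 0.00127). Both values are uncertain: on chromosome 4 Ccl27a (41769467-41774247, minus strand) and Il11ra1 (41699989-41769474, plus strand) overlap on opposite strands, and both have near-identical copies, among them Gm13305, which fell too (-1.78 on the log2 scale, adjusted p = 0.0142). Ccl27a passed as each library was left out in turn, while Il11ra1 missed the threshold without replicate 2 (adjusted p = 0.0674).

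Psmb8, H2-K1, H2-D1 and B2m, genes of MHC class I antigen presentation, were among the falls, and apart from Psmb8 they were chosen after their values were seen. Psmb8, an immunoproteasome subunit, stood at 10.8, 28.3 and 14.0 CPM in members, against 38.3, 41.8 and 77.2 CPM in Cxcl14-led cells, with no overlap (log2 difference -1.58 ± 0.30, adjusted p = 0.0158). H2-K1, a class I heavy chain, stood at 163, 286 and 181 CPM in members, against 263, 422 and 376 CPM in Cxcl14-led cells, and B2m, the shared light chain, at 60.5, 124 and 81.1 CPM in members, against 109.7, 173 and 189 CPM in Cxcl14-led cells. Each was lower in members within every library, with ranges that overlapped between libraries. H2-K1 fell by 0.81 ± 0.13 (adjusted p = 0.00675), B2m by 0.86 ± 0.17 (adjusted p = 0.0208) and H2-D1, another heavy chain, by 0.57 ± 0.10 on the log2 scale (adjusted p = 0.0115). The interferon-induced membrane gene Ifitm3 fell by 0.50 (adjusted p = 0.0181). Other genes of the pathway did not pass: Psmb9 differed by -1.05 (adjusted p = 0.0603), the peptide transporter gene Tap1 by -0.08 (adjusted p = 0.975), Tapbp by -0.27 (adjusted p = 0.537) and the regulator Nlrc5 by -0.88 (adjusted p = 0.537). H2-K1 passed as each library was left out in turn, and Ifitm3 missed the threshold each time (adjusted p = 0.113, 0.0674 and 0.0780 without replicates 1, 2 and 3). Without replicate 1, Psmb8 and B2m missed the threshold (adjusted p = 0.119 and 0.176). Without replicate 2, H2-D1 did (adjusted p = 0.119), and without replicate 3, Psmb8 differed by -0.94 (adjusted p = 0.241).

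Several of the most extreme falls were hair follicle markers or genes with few UMIs. Lgr5, a receptor of follicle stem cells, had 0 UMIs in members against 38 in Cxcl14-led cells, at least 29.2-fold lower when a floor of 3 counts over the class is used (adjusted p = 0.00387). Ctgf, a matricellular YAP target, had 2 UMIs in members against 74 in Cxcl14-led cells, a CPM ratio of 85.3 in favour of Cxcl14-led cells (exact 95% interval 22.8 to 717, counting error only; adjusted p = 4.11e-04). Sox9, a follicle transcription factor, stood at 1.68, 0 and 4.49 CPM in members, against 59.5, 12.2 and 24.4 CPM in Cxcl14-led cells, with no overlap (adjusted p = 0.00675). Cd34, a bulge marker, had 4 UMIs in members against 43 (adjusted p = 0.0294), and Tgm5, a transglutaminase, had 9 against 64 (adjusted p = 5.73e-04). Lhx2, a bulge transcription factor added after its values were seen, and Fst, the activin antagonist follistatin, fell by 3.42 and 3.39 on the log2 scale (adjusted p = 0.0278 and 0.0177). Lgr5, Ctgf and Tgm5 passed as each library was left out in turn. Sox9, Cd34 and Lhx2 missed the threshold without replicate 1 (adjusted p = 0.0840, 0.204 and 0.346), Cd34 and Fst without replicate 2 (0.0590 and 0.208) and Lhx2 without replicate 3 (0.115).

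Follicle marker RNA summed higher in the Cxcl14-led class within each library, but with overlapping ranges. The 8 follicle markers summed to 321, 293 and 444 CPM in members, with Lgr5 the 1 marker at 0. In Cxcl14-led cells they summed to 1409.5, 352 and 629.9 CPM, most of all in replicate 1. Lgr5, Cd34, Sox9 and Lhx2 are among these 8 markers, so the sums are not independent of their falls. A UMI of 6 of these markers was present in 164 members (18.8%) and 91 Cxcl14-led cells (19.0%), and these cells were left out in an alternative added after seeing the data. Then 37 genes passed, 10 higher and 27 lower, of which 16 were among the 46, and 34 of the 46 were still tested. Sox9, Cd34, Lgr5 and Lhx2 are among the 6 filter markers, so the filter itself left them no UMIs and gives no test of them. Ctgf, Tgm5 and Fst fell under the count filter. Pyy (-3.63), Ccl27a (-2.25), Psmb8 (-1.61), H2-K1 (-0.87), B2m (-0.87), Pkm (0.50) and Fam213a (0.82) still passed, these values being log2 differences. Fgfr1, a fibroblast growth factor receptor that stood at 11.4, 11.0 and 11.1 CPM in members, against 35.7, 23.3 and 21.5 CPM in Cxcl14-led cells, no longer passed (-0.58, adjusted p = 0.608). Crip1, a LIM-domain gene, stood at 329, 214 and 214 CPM in members, against 793, 341 and 643 CPM in Cxcl14-led cells (-1.25 ± 0.23, adjusted p = 0.0158), and differed by -0.22 without the follicle-marked cells (adjusted p = 0.784). Tnfrsf4, a co-stimulatory receptor gene, and Smpdl3a, a sphingomyelinase-like gene, fell by 1.16 and 1.05 (adjusted p = 0.0158 and 0.0123). Without those cells they differed by -1.06 and -1.02 and did not pass (adjusted p = 0.0688 and 0.0532). As libraries were left out in turn, Fgfr1 missed the threshold without replicates 1 and 2 (adjusted p = 0.131 and 0.111), Crip1 without 1 and 3 (0.0857 and 0.0780), Smpdl3a without 1 and 2 (0.0726 and 0.468) and Tnfrsf4 without any of them (0.149, 0.111 and 0.146).

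Other genes in the plot of named genes, chosen after their values were seen, fell by 0.49 to 1.24 on the log2 scale. Bbox1, a carnitine synthesis gene, and Me1, the cytosolic malic enzyme gene, fell by 0.97 and 1.24 (adjusted p = 0.0115 and 0.0174), Txnip, a thioredoxin-binding gene, by 0.49 (adjusted p = 0.0265) and Nbl1, a secreted BMP antagonist gene, by 0.84 (adjusted p = 0.0117). The LIM-domain gene Csrp1, the profilin gene Pfn2 and the membrane protein gene Flrt3 fell by 0.78, 0.85 and 1.03 (adjusted p = 0.00634, 0.00675 and 0.0481) and differed by -0.59, -0.68 and -0.96 without the follicle-marked cells, where they did not pass (adjusted p = 0.0856, 0.0650 and 0.0524). Me1, Pfn2 and Flrt3 missed the threshold whichever library was left out, with adjusted p of 0.0559 to 0.274. Without replicate 1, Txnip and Csrp1 did (adjusted p = 0.0518 and 0.0551), and without replicate 2, Txnip, Nbl1 and Bbox1 (0.343, 0.206 and 0.111).

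Among the genes that rose in members, Pkm, the pyruvate kinase that ends glycolysis, stood at 417, 325 and 460.2 CPM in members, against 305, 228 and 290.0 CPM in Cxcl14-led cells, with no overlap. Pkm rose by 0.51 ± 0.08 on the log2 scale (adjusted p = 0.00387). Fam213a, which encodes a peroxiredoxin-like protein, stood at 226, 146 and 207 CPM in members, against 134, 84.1 and 91.8 CPM in Cxcl14-led cells, with no overlap (0.88 ± 0.17, adjusted p = 0.0181). Both missed the threshold without replicate 2 (adjusted p = 0.119 and 0.205). Ces2g, a carboxylesterase gene, stood at 37.3, 32.6 and 48.6 CPM in members, against 22.5, 13.6 and 28.3 CPM in Cxcl14-led cells (0.91 ± 0.18, adjusted p = 0.0225). The lipid enzyme genes Abhd12b and Hsd17b12, which is involved in fatty acid elongation, rose by 0.81 and 0.46 (adjusted p = 0.0265 and 0.0481).

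Another 3 genes that rose were low, at under 24 CPM in members of any library, and Slc16a1 and Tfrc were added after their values were seen. Slc16a1, a lactate and pyruvate transporter, stood at 13.4, 13.9 and 17.4 CPM in members, against 3.97, 5.83 and 5.86 CPM in Cxcl14-led cells (1.35 ± 0.28, adjusted p = 0.0300). Tfrc, the transferrin receptor, stood at 14.8, 11.0 and 23.3 CPM in members, against 7.93, 5.35 and 6.84 CPM in Cxcl14-led cells (1.31 ± 0.27, adjusted p = 0.0265). Gsta4, a glutathione transferase, stood at 16.1, 8.14 and 23.8 CPM in members, against 9.26, 3.89 and 3.91 CPM in Cxcl14-led cells (adjusted p = 0.0432). The ranges did not overlap for Slc16a1 and Tfrc and did for Gsta4. Ces2g, Abhd12b, Hsd17b12, Tfrc, Slc16a1 and Gsta4 each missed the threshold whichever library was left out, with adjusted p of 0.0662 to 0.643.

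**Figure D3:**
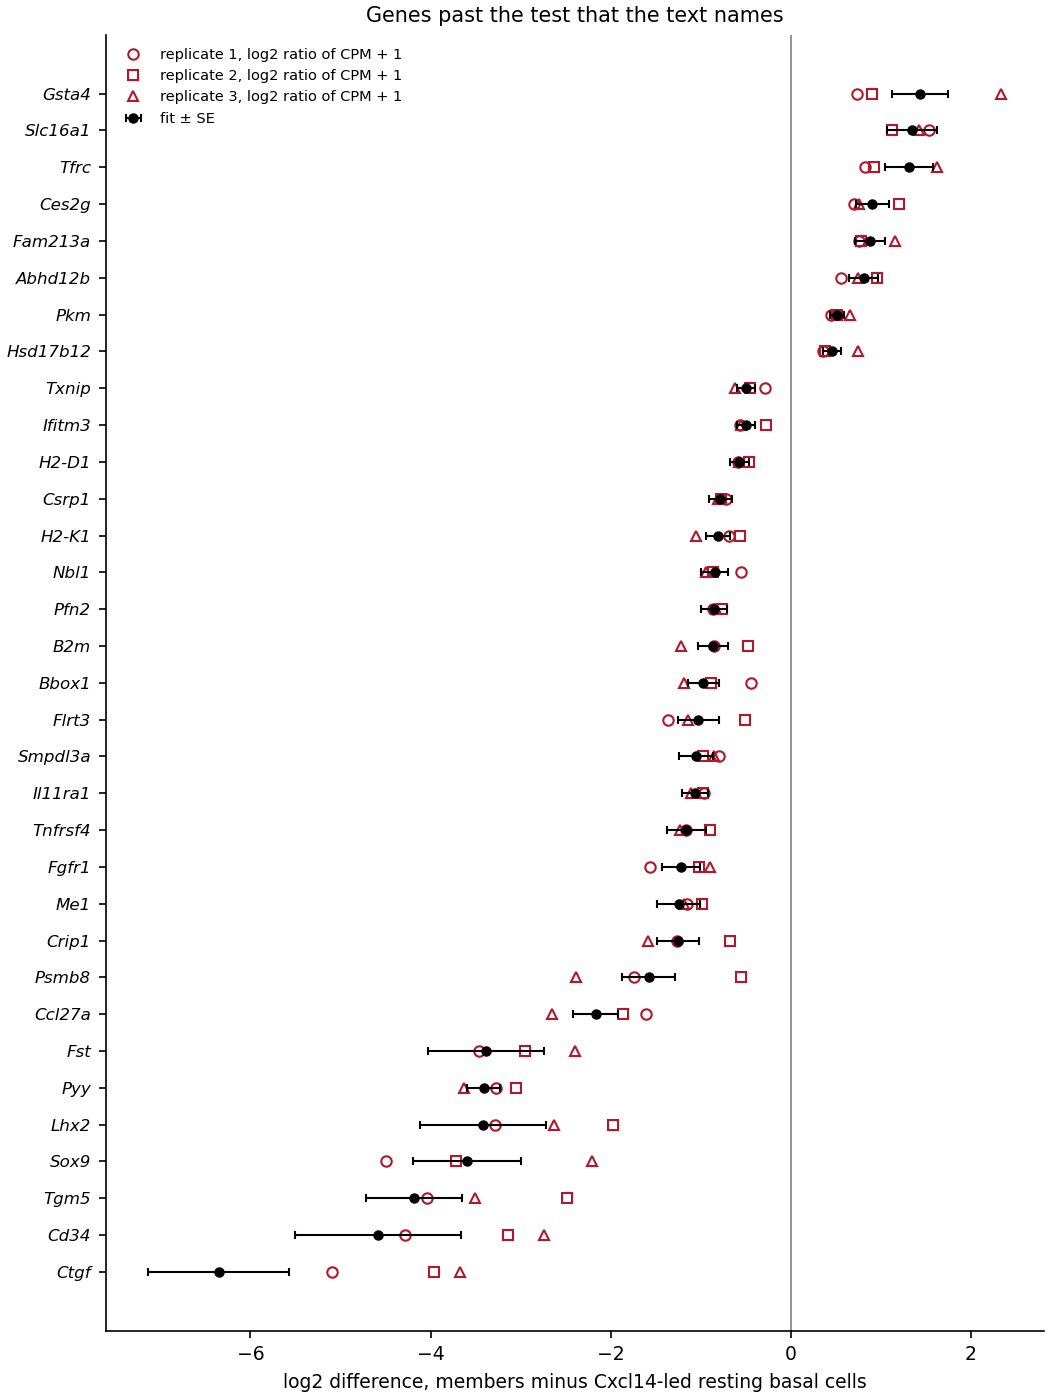
log2 difference, members minus Cxcl14-led resting basal cells (horizontal axis), for named genes past the test (vertical axis), with the fitted value ± SE in black and the ratio within each library in open symbols. Lgr5, at 0 UMIs in members, is not drawn; all 3 libraries of each gene fall on the same side of 0, from Gsta4 at 1.43 to Ctgf at the lower end.

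The 19 gene lists gave few calls in this comparison, and the median of all genes was 0.00 on the log2 scale. None of 24 tested genes of basement membrane adhesion passed (15 above 0, median log2 difference 0.05), with the integrins Itga6 and Itgb4, which anchor hemidesmosomes, at 0.28 and 0.14. Of 25 matricellular and matrix-processing genes, Ctgf fell and none rose (median -0.02), with Thbs1 and Serpinh1 at 0.25 and 0.30. None of 10 genes of the insulin-like growth factor axis passed (6 above 0, median 0.27): Igfbp4 stood at 0.58, Igfbp6 at 0.57, Igfbp7 at 0.18, Igfbp3 at -0.08 and the receptor gene Igf1r at -0.25. Of 15 genes linked to stem or slow-cycling basal cells, Cd34 and Sox9 fell and none rose (median 0.02). Krt15, a keratin of that list, stood at 966, 997 and 852 CPM in members, against 1124, 1314 and 1120.2 CPM in Cxcl14-led cells, lower in each library but not past the test (-0.37, adjusted p = 0.327). Lgr6, a receptor of that list, stood at 48.4, 54.1 and 64.2 CPM in members, against 37.0, 29.2 and 36.1 CPM in Cxcl14-led cells (0.69 ± 0.18, adjusted p = 0.107).

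Cell cycle lists lay above the median of all genes without a single call. Of 19 tested S phase genes 18 stood above 0 (median 0.71), and of 22 G2 and mitosis genes 20 did (median 1.01), yet none passed. Mki67 stood at 10.8, 9.10 and 19.3 CPM in members, against 0, 7.78 and 2.93 CPM in Cxcl14-led cells (1.45, adjusted p = 0.378), and Top2a, the mitotic topoisomerase, at 12.8, 12.5 and 13.7 CPM in members, against 5.29, 9.24 and 8.79 CPM in Cxcl14-led cells (adjusted p = 0.558). In cycling cells Top2a stood at 901, 1009 and 911 CPM, far above both resting classes. The cycle and histone gates are part of the rule for both classes, so these lists are not independent of it.

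The other lists held 0 to 1 calls each. Lgr5 fell among 33 Wnt pathway genes (median 0.03), Fst among 25 genes of the BMP, TGF-beta and Id group (median -0.03), Ccl27a among 14 chemokine and cytokine genes (median -0.15), Ctgf among 19 YAP targets (median -0.14) and Tgm5 among 28 spinous differentiation genes (median 0.12). Pkm rose among 15 glycolysis genes (median 0.14) and Gsta4 among 23 antioxidant and detoxifying genes (median -0.03). None passed among 17 Notch pathway genes (median 0.05), 12 genes of the EGF receptor family and its ligands (median -0.03), 14 D cyclin and CDK inhibitor genes (median 0.05), 38 epidermal transcription factors (median -0.07) and 14 chaperones (median 0.04). Of 27 early response genes 4 stood above 0 and none passed (median -0.14), with Fos at -0.14.

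**Figure D4:**
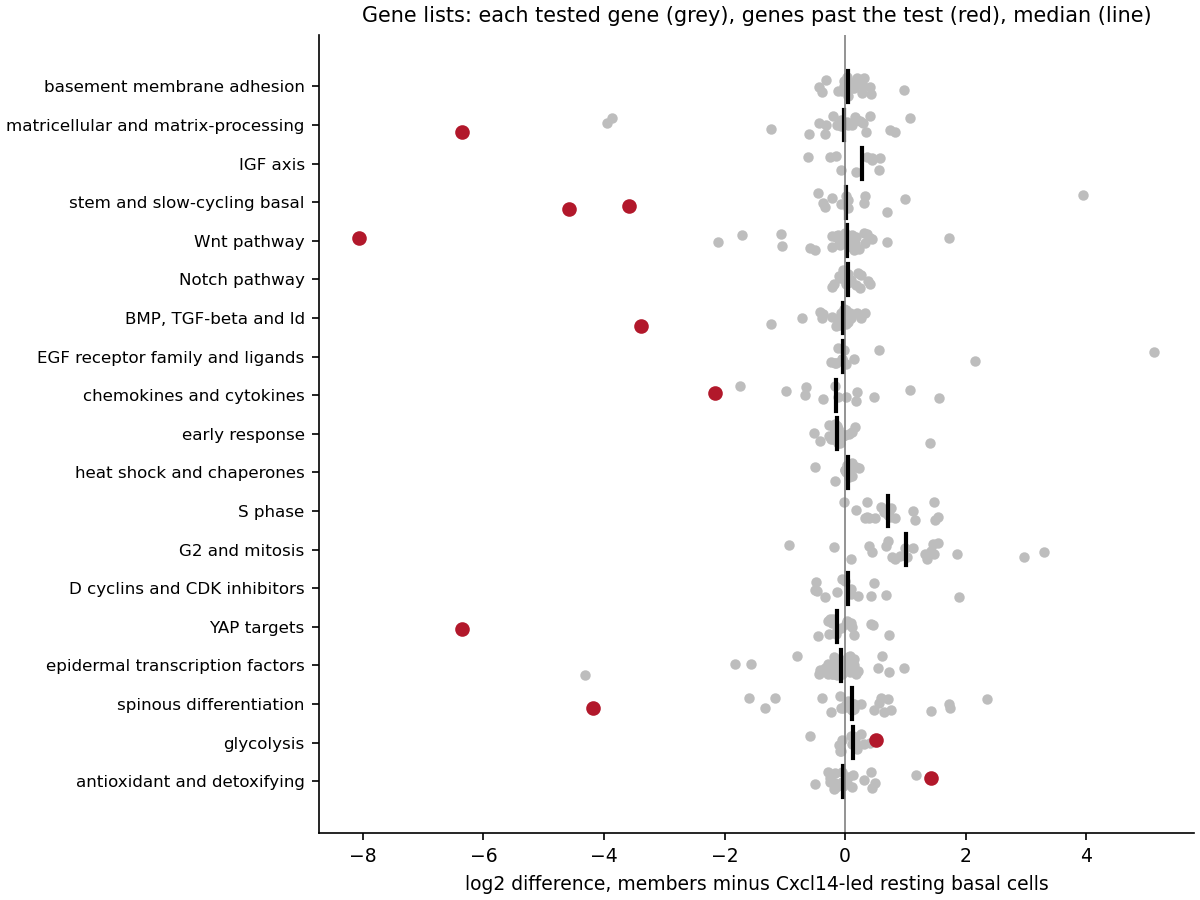
log2 difference, members minus Cxcl14-led resting basal cells (horizontal axis), of each tested gene of 19 lists (vertical axis), with genes past the test in red and the median as a line. Most medians lie within 0.15 of 0; the S phase (0.71) and G2 and mitosis (1.01) lists are shifted up with no red point.

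Against the 2461 spinous cells, most tested genes differed: 6904 of 10152 genes passed (68.0%), 3414 higher (33.6%) and 3490 lower (34.4%) in members. With plain UMI totals in place of TMM factors the split was 5083 higher and 2371 lower, and the median of all genes moved by 0.34 on the log2 scale, so directions near 0 depend on the scaling. Beyond the keratins of the gate, members were higher in adhesion, matrix and DNA replication genes and lower in cornified envelope and spinous genes.

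Among secreted and matrix genes, Sparc stood at 83.7, 69.9 and 83.3 CPM in members, against 1.50, 1.31 and 1.74 CPM in spinous cells, a rise of 5.33 ± 0.14 on the log2 scale (adjusted p = 1.31e-16). Igfbp7, a secreted binding protein, stood at 100.2, 82.9 and 105 CPM in members, against 2.42, 2.21 and 3.24 CPM in spinous cells (4.84), and Smoc2, a matricellular gene, rose by 4.86. Serpinh1, the collagen chaperone, rose by 5.19. The thrombospondins Thbs2 and Thbs1 rose by 5.80 and 4.05 and Postn by 3.64. Of 25 matricellular and matrix-processing genes 19 rose and 3 fell (median 2.55), against 33.6% and 34.4% of all genes. Of 10 genes of the insulin-like growth factor axis 6 rose and 0 fell (median 0.87): Igfbp6 by 3.66, Igfbp4 by 1.81 and Igfbp3 by 0.68, while the receptor gene Igf1r differed by -0.22 without passing (adjusted p = 0.0859).

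Of 24 basement membrane adhesion genes 21 rose and 2 fell (median 2.44). The integrin genes Itga3, Itgb4 and Itga6 rose by 4.76, 3.22 and 2.45, the perlecan gene Hspg2 by 4.71 and Col17a1 by 2.43. Dlk2, a membrane protein of the Notch family lists, stood at 62.9, 60.3 and 71.4 CPM in members, against 0.346, 2.00 and 1.18 CPM in spinous cells (5.33 ± 0.19). Ackr3, a scavenger receptor for the chemokine CXCL12, rose by 4.93, Gpnmb, a membrane glycoprotein, by 4.87 and the catenin-like gene Ctnnal1 by 5.09. Lgr6 and Krt15 rose by 4.59 and 4.09, 2 of 7 rises and 5 falls among 15 stem and slow-cycling genes (median 0.97), with Cd24a at -2.41.

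The cell cycle lists split. Of 19 S phase genes 18 rose in members and 0 fell (median 2.78). Gins2, a replication fork gene, stood at 26.2, 23.0 and 38.1 CPM in members, against 1.84, 1.38 and 1.56 CPM in spinous cells (3.88 ± 0.21), and at 32.8, 25.9 and 28.4 CPM in cycling cells, a range that overlapped that of members. Dut, which removes dUTP, stood at 39.0, 38.3 and 65.0 CPM in members, against 2.65, 3.24 and 2.93 CPM in spinous cells (3.67), and at 246, 197 and 215 CPM in cycling cells, above every member value. Of 22 G2 and mitosis genes 2 rose and 4 fell (median -0.16), and under plain UMI totals 4 rose and 3 fell (median 0.16). The cycle and histone gates were applied to members and not to spinous cells, which favours lower cycle genes in members. The cycle lists are thus not independent of the rule here either. The cyclin genes Ccnd2 and Ccnd1 rose by 3.73 and 3.50 and the CDK inhibitor genes Cdkn1a and Cdkn2b fell by 3.45 and 5.50. Ccnd2 averaged 837 CPM in members and 161 CPM in cycling cells. Aspm, a spindle gene of the stem list, fell by 1.70 (adjusted p = 0.0401) with all libraries and missed the threshold whichever library was left out (adjusted p = 0.0615, 0.121 and 0.0578).

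Spinous and envelope genes were lower in members in nearly every case: of 28 spinous differentiation genes 27 fell and 1 rose (median -3.83). The gate on Krt1 and Krt10, which separates the classes, favours this direction. The keratin gene Krt77 fell by 8.74 and Lce1d, a late cornified envelope gene, by 8.65. The spinous class was gated on Krt1 and Krt10 alone and included cells with granular markers. Of its 2461 cells, 384 held 10 or more UMIs of 7 granular markers, Lor and Lce1c among them. These markers summed to 5803, 4387 and 8640 CPM in spinous cells of replicates 1, 2 and 3. Gjb2, a gap junction gene, had 1 UMI in members against 1596 in spinous cells. Dnase1l3, a secreted nuclease gene, had 4 UMIs in members against 3426. The Lce1 genes are near-identical copies, so the values of single Lce1 genes are uncertain. The exception that rose was Serpinb2, a protease inhibitor (1.55). For the lists that follow, 33.6% of all genes rose and 34.4% fell. Transcription factor genes went both ways, 15 higher and 18 lower of 38 (median -0.09; 17 and 17 under plain UMI totals): Trp63, the basal regulator, rose by 0.72 and Zfp750, a differentiation factor, fell by 5.37. Notch3 fell by 3.53, with 5 rises and 6 falls among 17 Notch pathway genes, a balance that turned to 9 rises and 6 falls under plain UMI totals. Early response genes fell more often than they rose, 17 against 4 of 27 (median -0.52) and 11 against 6 under plain UMI totals. Of the 90 named genes that passed, 88 passed as each library was left out in turn; the others were Aspm and the mitotic motor gene Kif11, which missed the threshold without replicate 2 (adjusted p = 0.0717).

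The other lists against spinous cells are to be read beside the 33.6% of all genes that rose and the 34.4% that fell. A split such as 7 and 7 of 19 is close to those shares. In these lists, 16 Wnt pathway genes rose and 9 fell of 33 (median 0.42), and 14 genes of the BMP, TGF-beta and Id group rose and 8 fell of 25 (median 0.77). Of 12 genes of the EGF receptor family and its ligands 3 rose and 7 fell (median -0.64), against 5 and 5 under plain UMI totals. Chemokine and cytokine genes split 6 and 6 of 14 (median -0.40), chaperones 6 and 6 of 14 (median -0.03; 8 and 5 under plain UMI totals), YAP targets 7 and 7 of 19 (median -0.20; 8 and 6 under plain UMI totals), and D cyclin and CDK inhibitor genes 7 and 5 of 14 (median 0.22). Among 15 glycolysis genes there were 10 rises and 3 falls (median 0.60), and among 23 antioxidant and detoxifying genes 14 rises and 6 falls (median 0.71), with the carbonyl reductase gene Cbr2 up by 4.69. The stress chaperone gene Hspb1 fell by 3.22.

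Against all 4467 other kept cells together, 6811 of 11226 genes passed (60.7%), 3178 higher (28.3%) and 3633 lower (32.4%) in members. Plain UMI totals gave 4908 higher and 2729 lower with a median shift of 0.24. The ranking here covers genes averaging 20 CPM or more in the higher class, with predicted Gm and Rik genes left out. Of these, the genes that rose most were Slc2a5, a fructose transporter gene at 45.4, 37.8 and 28.0 CPM in members, against 5.18, 5.78 and 5.57 CPM in all other cells (2.46 ± 0.16), Gpnmb (2.45), Fkbp11 (2.40), Ngfr, the low-affinity neurotrophin receptor gene (2.40), Dlk2 (2.29), Rin1 (2.25), the protease gene Adam8 (2.24) and Sparc (2.23). Igfbp7, Ccnd2, Lgr6 and Krt15 rose by 2.10, 2.22, 2.01 and 1.43. The 8 largest falls in this ranking were all Lce1 genes. Lce1k had 0 UMIs in members against 1228, at least 62.2-fold lower at a floor of 3 counts over the class.

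Because the other cells include the cycling basal cells, the cycle lists behaved differently here. All 22 G2 and mitosis genes fell (median -3.26), as the cycle gates of the rule favour. Of 20 S phase genes 13 rose and 2 fell (median 0.56). Of 26 basement membrane adhesion genes 24 rose and 2 fell (median 1.54), of 24 matricellular and matrix-processing genes 18 rose and 5 fell (median 1.34), and of 28 spinous differentiation genes 1 rose and 27 fell (median -3.55). The keratin gate of the rule favours the fall of the spinous list. Across all genes 28.3% rose and 32.4% fell, with a median of 0.00. The 20 named genes passed under every alternative that tested them.

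Members also differed among themselves. When each was assigned to whichever of Thy1, Mmp3 and Igfbp2 had the most UMIs, 416 were Thy1-led (103, 142 and 171 in replicates 1, 2 and 3), 96 Mmp3-led (32, 26 and 38) and 269 Igfbp2-led (78, 52 and 139), and 92 ties were left out. This split compares UMI counts as deposited, not levels per transcript length. Each group was compared with the mean of the other 2 groups over 7939 genes, without the 3 genes that made the split. Thy1-led members gave 34 calls (0.428%; 18 higher, 0.227%, and 16 lower, 0.202%), Mmp3-led members 36 (0.453%; 24 higher, 0.302%, and 12 lower, 0.151%) and Igfbp2-led members 13 (0.164%; 9 higher, 0.113%, and 4 lower, 0.0504%), 64 distinct genes in all. Leaving out replicate 1, 2 or 3 gave 34, 107 and 60 genes and leaving out the library block 6, so membership of these lists depends strongly on the libraries used.

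Mmp3-led members were higher in genes of the spinous list, 6 of 19 tested, none of which was lower (median 0.22). Lypd3, a surface protein of differentiating keratinocytes, stood at 119, 103 and 78.8 CPM in Mmp3-led members, against 36.1, 29.2 and 57.6 CPM as the mean of the other groups (1.35 ± 0.20, adjusted p = 7.92e-06). Guca2a, which encodes the peptide guanylin, stood at 223, 187 and 188 CPM in Mmp3-led members, against 119.7, 108 and 101 CPM (0.92 ± 0.13, adjusted p = 2.92e-06). Neither pair of ranges overlapped. Guca2a passed in every alternative that gave a value, whereas Lypd3 missed the threshold without replicate 1 (adjusted p = 0.268). Epcam, an epithelial adhesion gene, stood at 163, 112 and 177 CPM in Mmp3-led members, against 63.0, 102 and 106 CPM (0.91 ± 0.15; adjusted p = 1.65e-04 with all libraries and 0.473 without replicate 1). Serpinb5, the serpin maspin, stood at 300.4, 229 and 262 CPM in Mmp3-led members, against 173, 187 and 197 CPM (0.58; adjusted p = 0.00219 with all libraries and 0.587 without replicate 1).

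Genes lower in Mmp3-led members included Lgr6 and Krt15 of the stem and slow-cycling list and 2 early response genes. In that stem list 9 genes were tested: these 2 fell, and 7 stood above 0 (median 0.15). Of 24 early response genes 2 fell, none rose and 2 stood above 0 (median -0.24). None of 22 basement membrane adhesion genes passed (median -0.03). Across all genes 0.151% fell, with a median of 0.00. Lgr6 fell by 1.02 (adjusted p = 0.0415), Krt15 by 0.52 (adjusted p = 0.00733) and Ccnd2 by 0.45 (adjusted p = 0.00125). The Krt15 difference rested on replicate 1, without which it was -0.15 (adjusted p = 0.880). The early response genes Atf3 and Btg2 fell by 0.81 and 0.60, and Hspb1 by 0.69 (adjusted p = 6.89e-05), which passed as each library was left out in turn. Without replicate 1, Lgr6, Ccnd2 and Btg2 missed the threshold (adjusted p = 0.570, 0.268 and 0.142), and without replicate 3 so did Lgr6, Ccnd2, Btg2 and Atf3 (0.354, 0.0861, 0.0607 and 0.239).

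Thy1-led members had the opposite sign for several of these genes; the comparisons share the same 3 groups of members. Lypd3 stood at 27.9, 21.1 and 36.9 CPM in Thy1-led members, against 81.8, 70.1 and 78.6 CPM as the mean of the other groups, with no overlap (-1.35 ± 0.18, adjusted p = 1.93e-07), and passed in every alternative. Krt2, a keratin of upper epidermal layers in ear skin, stood at 823, 313 and 677 CPM in Thy1-led members, against 1348, 751 and 1290.1 CPM, lower in every library (-0.94 ± 0.12, adjusted p = 9.04e-08). Krtdap, a keratinocyte differentiation gene, fell by 0.73 and, like Krt2, passed as each library was left out in turn. Cdkn1a fell by 0.52 and missed the threshold without replicates 1 and 2 (adjusted p = 0.468 and 0.224). Btg2 stood at 191, 334 and 443 CPM in Thy1-led members, against 134, 244 and 286 CPM, higher in every library (0.58 ± 0.09, adjusted p = 3.28e-05), and Hspb1 and Cbr2 rose by 0.45 and 0.52, Cbr2 missing the threshold without replicate 1 (adjusted p = 0.433). Pyy rose by 1.68 ± 0.22 in Thy1-led members with all libraries and differed by 0.74 without replicate 3 (adjusted p = 0.239).

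Igfbp2-led members had all 17 tested S phase genes above 0 (median 0.64), of which Dut passed. Dut stood at 57.4, 39.5 and 84.9 CPM in Igfbp2-led members, against 24.9, 36.2 and 35.0 CPM as the mean of the other groups (1.01 ± 0.20, adjusted p = 0.00405), and Pclaf, a replication-associated gene outside the lists, at 23.5, 21.9 and 37.1 CPM, against 1.51, 8.74 and 16.3 CPM (1.66 ± 0.35, adjusted p = 0.0107). Neither pair of ranges overlapped, but without replicate 1 neither passed (adjusted p = 0.458 for Dut and 0.535 for Pclaf), nor did Dut without replicate 3 (0.437). In cycling cells Pclaf stood at 468, 364 and 503 CPM, far above every Igfbp2-led value. Krt15 rose by 0.45 (adjusted p = 0.0162) with all libraries and differed by 0.15 without replicate 1. Pyy stood at 3.77, 28.5 and 9.98 CPM in Igfbp2-led members, against 10.8, 119.9 and 74.2 CPM, and fell by 2.50 ± 0.31 (adjusted p = 4.02e-07), and passed as each library was left out in turn. Ccl27a and the cytokine gene Il34 fell by 0.72 and 0.56, Ccl27a missing the threshold without replicates 1 and 2 (adjusted p = 0.564 and 0.349) and Il34 without replicate 3 (0.815).

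**Figure D5:**
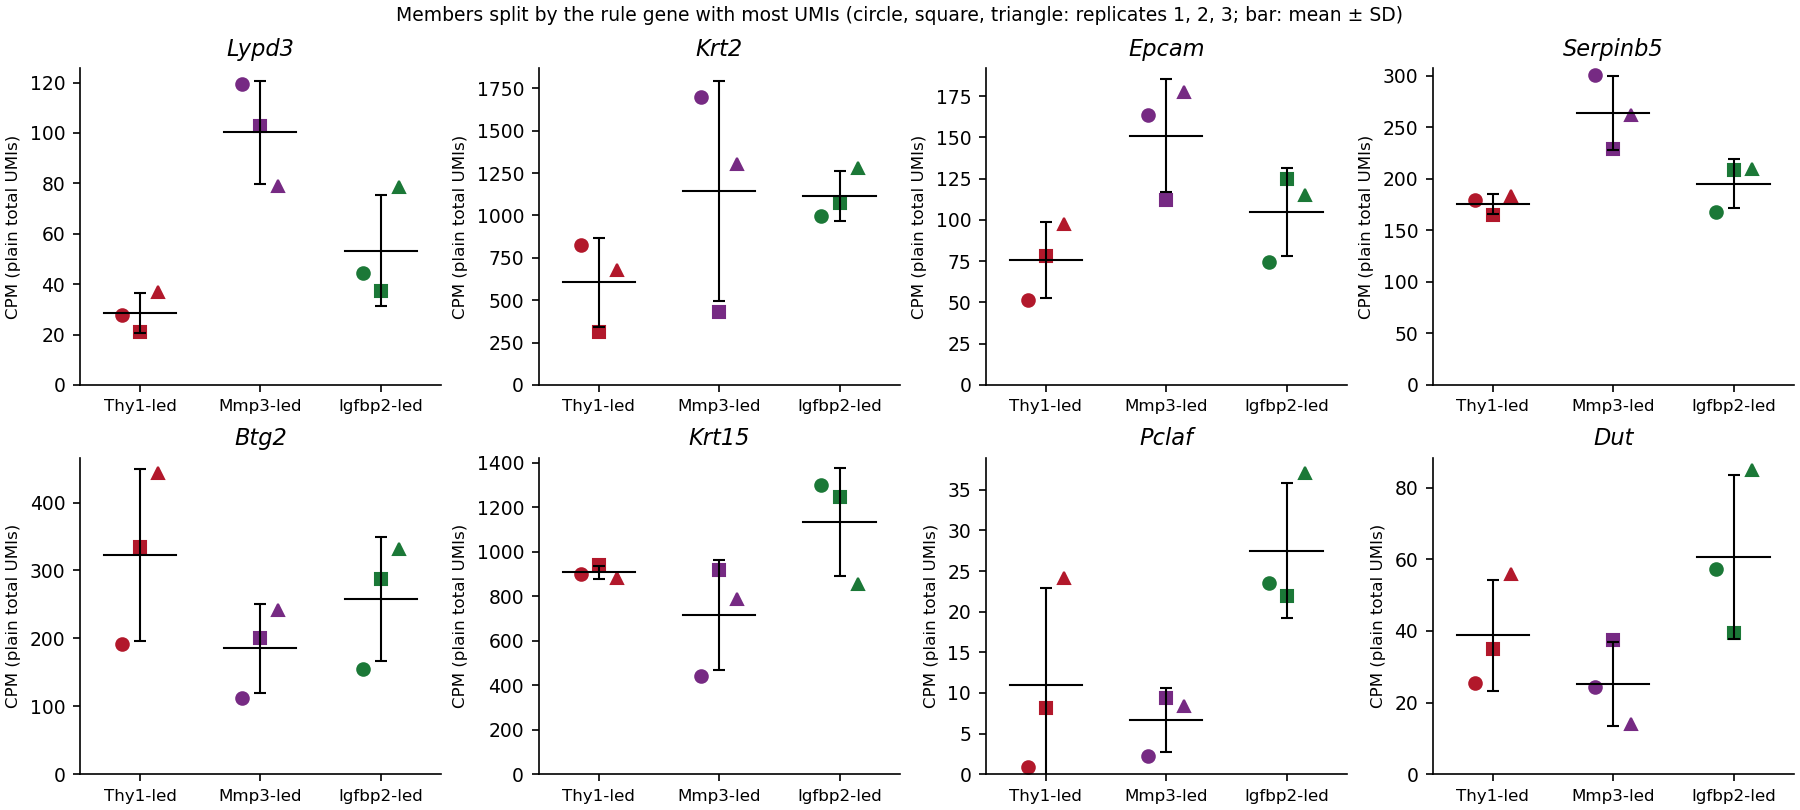
Summed expression in CPM (vertical axis, linear, from 0, where a lower bar is clipped) of 8 genes in members split by the rule gene with the most UMIs (horizontal axis), with 1 symbol for each library and the mean ± SD over 3 libraries. Lypd3 and Serpinb5 are highest in Mmp3-led members and Pclaf and Dut in Igfbp2-led members, with a wide spread between libraries.

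Some calls of this split rested on single cells. In Thy1-led members, 91.5% of the UMIs of Lor, the granular envelope gene loricrin, and 98.0% of those of Crct1 came from 1 cell of replicate 3, and granular markers summed to 26.2, 50.3 and 996 CPM in members and to 29.1, 52.5 and 97.7 CPM in Cxcl14-led cells. Without the members that held 10 or more granular UMIs, an alternative added after seeing the data, Lor differed by 0.07 in place of 2.61 and Crct1 by 0.07 in place of 5.37 on the log2 scale. Fabp5, a fatty acid binding gene called higher in Igfbp2-led members (1.25), drew 61.5% of its UMIs from 1 cell and differed by -0.15 without replicate 3. Zfand6 drew 31.4% of its Thy1-led UMIs from 1 cell and differed by 0.20 in place of 0.70 once granular-marked members were left out. Sparc passed in none of the 3 groups (0.35 in Thy1-led, 0.04 in Mmp3-led and -0.39 in Igfbp2-led members).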

How the data were processed

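The deposited UMI counts per gene and barcode were made by the authors with Cell Ranger 3.1.0 on mm10, per the submitters' processing notes and the file headers. Which gene annotation was used is not stated in those sources. Filters of 500 detected genes and a 10% mitochondrial share left 944, 2212 and 2184 cells. Doublets were marked with Scrublet (scanpy 1.11.5, Python 3.11.15) and left in, with their removal as an alternative. The members and gene lists were chosen with earlier results of these data known.

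Counts were summed per library and class (members, Cxcl14-led resting, remaining resting, cycling basal and spinous cells). Sums were tested with edgeR 4.0.16 in R 4.3.3 (quasi-likelihood, TMM factors, filterByExpr, library as block), with adjusted p from the Benjamini-Hochberg method over all genes tested and a threshold of 0.05. The 16 genes of the rule were left out of the tests but stayed in library sizes. All other cells were compared in a separate fit of 2 profiles per library, and members split by leading gene in another. The summed classes held 756274 to 16048454 UMIs per library for members, Cxcl14-led and spinous cells. The code was tested on simulated data. The block is the library itself, since the classes of 1 library were prepared and sequenced together. Deviations from class means correlated within libraries for members and Cxcl14-led cells (r = 0.305, 0.394 and 0.201 over 4855 genes) and least for Thy1-led and Mmp3-led members (r = 0.105 to 0.172 over 4662 genes).

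Genes were named where they passed the threshold, moved the same way in 3 libraries and averaged 20 CPM or more in the higher class, taking the 12 largest changes each way against Cxcl14-led cells, 8 against the other classes and 4 per leading gene, plus the 2 extreme calls each way of each list. Other named genes were chosen after their values were seen. Of the genes called against Cxcl14-led cells, 1 that these naming criteria pick is not reported here. Intervals are exact (Clopper-Pearson for shares) at 95%, and a floor of 3 counts stands for 0. Alternatives were DESeq2 1.42.0, plain totals, no count filter, no block, other gates, depth windows and leaving out each library or marked cells. Gene bounds came from GENCODE M21 on mm10 and promoters from RefSeq on GRCm38.p6.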

Additional observations from a re-analysis of the deposited data

How the results depend on the processing

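The 46 genes called against Cxcl14-led cells became 78 with DESeq2, 245 with no low-count filter, 30 among cells of 5000 to 20000 UMIs and 17 to 39 as each library was left out. Without the replicate block there were 12, all lower in members. Of these 46, DESeq2 called 42 and the unfiltered test all 46. The 6811 calls against all other cells became 4346 in the UMI window and 3086 with cells bearing other cell types' markers left out, 6151 without the block, and 6035 to 6114 as each library was left out. The 6904 calls against spinous cells became 3876 with those marked cells left out, 6463 without the block, and 6075 to 6416 as each library was left out. That marker filter counts Epcam, and it left 400 of 873 members and 672 of 2461 spinous cells. With Epcam taken out of the filter, 726 members and 1938 spinous cells were left. The calls were then 6356 against all other cells and 6473 against spinous cells. The 64 calls among leading genes became 42 with DESeq2, 132 with no low-count filter, 6 without the block, and 34 to 107 as each library was left out. The mean share of kept cells, 17.9%, became 25.7% in the UMI window, 12.8 to 20.8% under the other alternatives and 14.6 to 21.4% as each library was left out. The share of resting basal cells, 47.5%, became 33.6 to 55.1% and 40.4 to 56.4% as each library was left out. Among named results that passed in the main or the alternative fit, direction reversed in 2: Aspm against spinous cells was 0.61 with marked cells left out, and Fabp5 in Igfbp2-led members was -0.15 without replicate 3 and 1.49 without replicate 2. The cause was not tested in either case, though 61.5% of the Fabp5 UMIs came from 1 cell. Some named genes that passed in neither fit also changed sign, 5 of them against Cxcl14-led cells without replicate 3. Named calls that passed under every alternative numbered 2 of 34 against Cxcl14-led cells, 20 of 20 against all other cells, 85 of 90 against spinous cells, and 1 of 17, 1 of 15 and 0 of 10 in Thy1-led, Mmp3-led and Igfbp2-led members. The Cxcl14-led class of replicate 1 held 69 cells, which limits low genes there. The marker filters other than the planned one and the granular filter were chosen after seeing the data.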
